A study of Mus musculus with 8 samples.

Results

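The PPAR, PGC-1 and ERR regulators are a circuit of nuclear receptors and their cofactors that sets fuel use in muscle. They were followed as 10 genes of the 24033 in the deposited matrix, each taken by its symbol: the receptors Ppara, Ppard, Pparg, Esrra, Esrrb and Esrrg, the partner receptor Rxra, the coactivators Ppargc1a and Ppargc1b, and the corepressor Nrip1. RNA was sequenced from the soleus, a slow oxidative hindlimb muscle, of 8 mice aged 2 months. The 4 MyoCre controls carried Myogenin-Cre/+, a Cre recombinase expressed from the myogenin gene during muscle development. In the 4 K15-SKO mice Myogenin-Cre/+ was combined with K15F/F, the floxed alleles of the transcription factor gene Klf15. Both genotypes therefore carry the Cre, no group without Cre was analysed here, and cells of the muscle that never express myogenin keep the gene. Nothing in the labels says whether mice shared a litter or cage, and the libraries are treated as 4 separate samples per genotype.

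PPAR receptors bind DNA as pairs with a retinoid X receptor and are switched on by fatty acids. In muscle, PPAR alpha and PPAR delta are known for inducing fatty acid uptake and oxidation genes, whereas PPAR gamma is best known from fat cells. The estrogen-related receptors bind DNA without a known natural hormone and drive genes of mitochondrial energy metabolism. The PGC-1 proteins do not bind DNA themselves; they dock on PPAR and ERR receptors and activate their targets, and RIP140, the product of Nrip1, docks on the same receptors and represses them.

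The targeted gene was lower in the libraries labelled K15-SKO. Mean Klf15 was 41.6 ± 12.7 FPKM for the controls against 16.2 ± 2.58 FPKM for the knockouts (SD, n = 4 each; log2 fold change -1.28, SE 0.25, limma adjusted p = 0.0315), a call that 8 of 20 alternative fits kept. The values are taken to be FPKM, fragments per kilobase of transcript scaled to library size, a unit inferred from the table. Some of its levels are far below what is known of muscle: Gapdh, a glycolytic enzyme gene of every cell, averaged 0.81 FPKM and the housekeeping gene Ppia 0.11 FPKM, and the fast myosin gene Myh2 is listed at 0 in all 4 controls against 738.1 to 2095 FPKM in K15-SKO libraries. Levels set between genes below are therefore those of the table only. Depth is known only roughly; an estimate from the lowest values gave 7160000 to 22600000 fragments per library, highest in MyoCre replicate 2. The muscle markers Ckm, Mb, Des and the slow myosin genes were present in every library, and their list summed to 17914 to 32357 FPKM among controls and 18255 to 36864 FPKM among knockouts. A few libraries stood apart. K15-SKO replicate 3 had a median-of-ratios factor of 0.80 against 0.96 to 1.16 in the others, so most genes read low in it, and its haemoglobin and erythroid sum was 2034 FPKM against 284.0 to 577.4 FPKM elsewhere. MyoCre replicate 2 had 23.0 FPKM of the Y-linked Ddx3y and 0.0103 FPKM of Xist, where the other 7 libraries had 0 and at least 20.998 FPKM; the labels give no sex. MyoCre replicate 4 held 22.8 FPKM of Klf15, nearer to the K15-SKO libraries (at most 19.3 FPKM) than to the other controls (at least 44.5 FPKM).

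Taken gene by gene, no regulator was called different between the genotypes. The group as a whole was not tested. All 10 passed the filter of a mean of at least 1 FPKM. In limma over the 12535 genes tested, 0 of 10 passed an adjusted p of 0.05. At an unadjusted p under 0.05 the count was also 0 of 10, against 4.33% of all tested genes. At the adjusted threshold, 0.183% of all genes were called lower and 0.367% were called higher, 0.55% in all. The second share consists of 46 genes listed at 0 in all 4 MyoCre libraries. In none of the 10 were the ranges of the genotypes separate, against 3.35% of all tested genes. The log2 fold changes ran from -0.39 for Ppara to 0.10 for Rxra, 8 of them negative and 2 positive, with a median of -0.13. The median of all tested genes was -0.12, so 5 of the 10 lay below it and 5 above. With median-of-ratios scaling, which brings the median of all genes to 0.00, 5 were negative and 5 positive. The 95% intervals of the 10 fold changes ran at their widest from -0.90 to 0.81 on the log2 scale, and from -0.80 to 0.91 with median-of-ratios scaling. A 2-fold difference in either direction therefore lay outside each interval in these fits. Of 197 tests of a member under the alternative settings, 0 passed the threshold, and 12 gave an interval that reached past a 2-fold change, 8 of them for Ppargc1a.

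**Figure D1:**
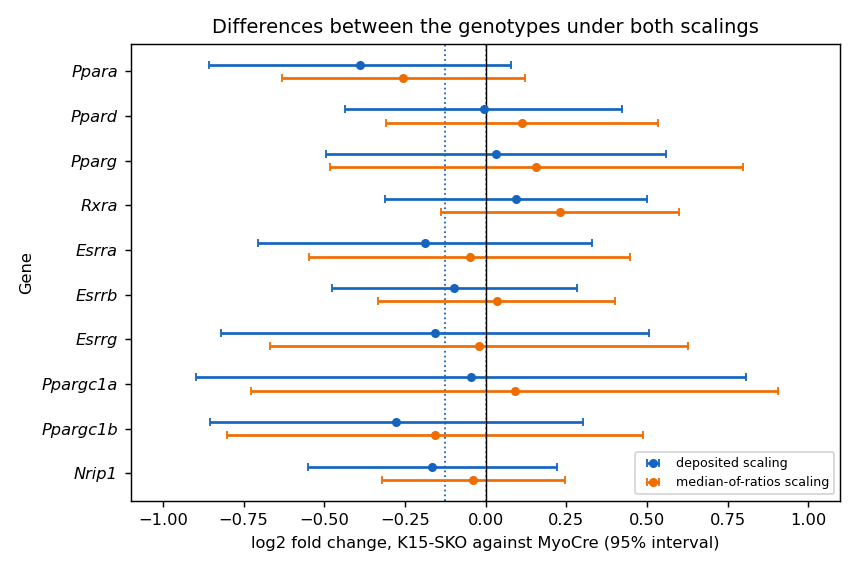
Log2 fold change of each regulator, K15-SKO against MyoCre (x axis), with its 95% interval, in limma fits of 4 and 4 libraries as deposited (blue) and after median-of-ratios scaling (orange). Dotted lines mark the median of all tested genes, -0.12 and 0.00; each interval includes 0 and none reaches a 2-fold change (1 on this scale).

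In the table the levels fell into an upper and a lower tier. Esrrg averaged 43.5 FPKM over the 8 libraries, Esrra 41.8, Ppargc1a 32.2, Ppara 22.0 and Rxra 19.9 FPKM. Below them came Esrrb with 7.96, Nrip1 with 5.76, Pparg with 3.20, Ppargc1b with 2.93 and Ppard with 2.67 FPKM. The tiers did not touch, since the lowest library of Rxra (13.8 FPKM) lay above the highest of Esrrb (9.29 FPKM). Within a tier neighbouring ranges overlapped. Esrrg exceeded Esrra in 3 of 8 libraries only, although its mean was higher, and Ppargc1b exceeded Ppard in 6 of 8. Esrrb exceeded Nrip1 in 8 of 8 libraries, though their ranges touched. In bulk muscle a lower level can mean fewer cells of a type or less RNA per cell, and these cannot be told apart.

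**Figure D2:**
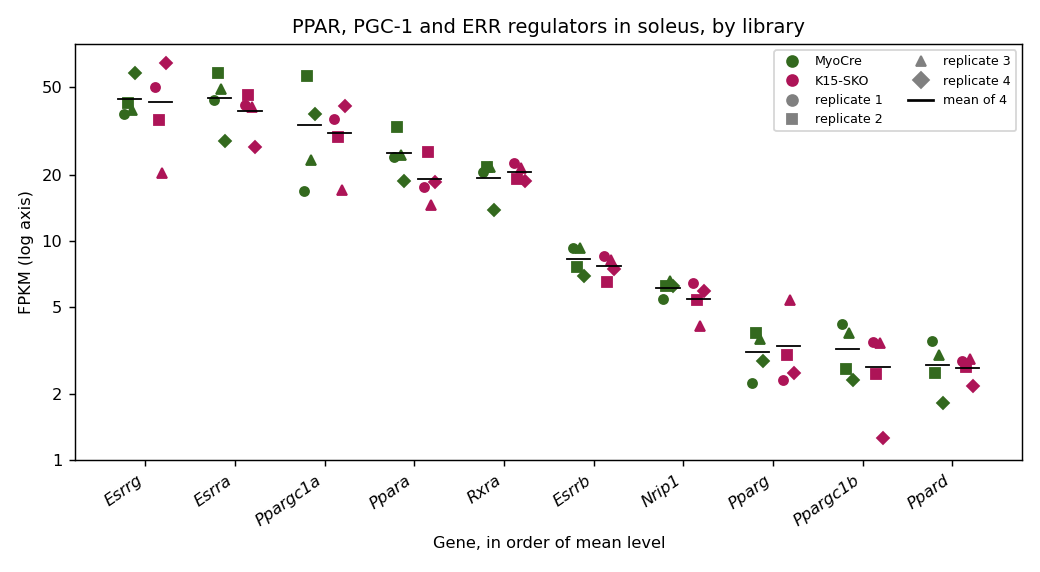
FPKM (log axis) of the 10 regulators in the 8 soleus libraries, in order of mean level; each point is 1 library (colour, genotype; shape, replicate number) and each black line the mean of 4. The genotypes overlap for each gene, and Rxra, the lowest of the upper tier at 19.9 FPKM, stands clear of Esrrb at 7.96 FPKM.

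Among the PPAR receptors, Ppara had the highest level in the table. Ppara (ENSMUSG00000022383.13; mm10 chromosome 15, 85734983 to 85802819, plus strand) encodes the receptor best known for inducing fatty acid oxidation. The MyoCre libraries held 24.1, 32.8, 24.5 and 18.8 FPKM in the order of their replicate numbers, and the K15-SKO libraries 17.6, 25.4, 14.5 and 18.6 FPKM. MyoCre replicate 2 was the highest and K15-SKO replicate 3 the lowest, and K15-SKO replicate 2 lay above 3 of the 4 controls. The means were 25.0 ± 5.79 and 19.0 ± 4.59 FPKM, or 75.9% of the control level. This was the largest difference of the 10 as deposited (log2 fold change -0.39, SE 0.22, 95% interval -0.86 to 0.08, limma unadjusted p = 0.0952, adjusted p = 0.957). Over the 20 alternatives it ran from -0.54 without K15-SKO replicate 2 to -0.25 without MyoCre replicate 2, and it was -0.52 without MyoCre replicate 4, -0.44 with library weights, -0.27 without K15-SKO replicate 3 and -0.25 with median-of-ratios scaling. Ppara had the largest difference of the 10 in 16 of the 20, Ppargc1b in 3 and Esrrg in 1. Unadjusted p fell under 0.05 for Ppara in 3 alternative fits, with adjusted p-values from 0.268 to 0.882.

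Ppard and Pparg were low in this table. Ppard (ENSMUSG00000002250.15; chromosome 17, 28232700 to 28301474, plus strand), the receptor linked to the oxidative fibre programme, had 3.47, 2.50, 3.01 and 1.81 FPKM in MyoCre and 2.83, 2.66, 2.88 and 2.17 FPKM in K15-SKO libraries. The K15-SKO values lay inside the range of the controls (log2 fold change -0.01, SE 0.20, 95% interval -0.43 to 0.42), and the sign turned with median-of-ratios scaling (0.11). Ppara exceeded Ppard by 5.04 to 13.1 times within a library.

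Pparg (ENSMUSG00000000440.12; chromosome 6, 115360951 to 115490399, plus strand), the regulator of fat cell formation, had 2.24, 3.79, 3.57 and 2.82 FPKM in MyoCre and 2.32, 3.01, 5.37 and 2.49 FPKM in K15-SKO libraries. The value of 5.37 FPKM in K15-SKO replicate 3 stood above every other library. Its fold change was 0.03 on the log2 scale (SE 0.24), and -0.20 without that library. Markers of other cell types were uneven in the same library. Its sum over 8 fat cell markers was 500.2 FPKM against 256.2 to 348.9 FPKM in the others, of which Fabp4, a lipid carrier that capillary endothelium also makes, gave 458.0 FPKM. The defining fat cell markers Adipoq and Plin1 were at 2.86 and 1.14 FPKM there, within the range of the other libraries (1.60 to 7.14 and 0.45 to 2.53 FPKM). After median-of-ratios scaling Fabp4 and Cidec were at their highest there, while Adipoq, Plin1, Lep, Retn, Cfd and Cebpa were not. Its endothelial sum of 197.6 FPKM was above the 119.8 to 160.0 FPKM of the others. Macrophage markers were mixed as deposited: C1qa (16.9 FPKM) and C1qb (11.3 FPKM) were at their highest there, and Ptprc (0.74 FPKM) at its lowest. After median-of-ratios scaling C1qa, C1qb, Csf1r, Cd163 and Cd68 were at their highest there, while Adgre1, Mrc1 and Ptprc were not. Scaled Ptprc was 0.92 FPKM there, above the 0.73 FPKM of K15-SKO replicate 1. The part of these cells in the Pparg level was not tested. The brown fat marker Ucp1 was at or near 0, with at most 0.06 FPKM.

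Rxra, the retinoid X receptor that pairs with each PPAR, was even as deposited apart from MyoCre replicate 4. Rxra (ENSMUSG00000015846.14; chromosome 2, 27676440 to 27762957, plus strand) had 20.5, 21.6, 21.6 and 13.8 FPKM in MyoCre and 22.6, 19.1, 21.4 and 18.8 FPKM in K15-SKO libraries. MyoCre replicate 4 stood apart on the low side, and the remaining 7 libraries lay between 18.8 and 22.6 FPKM. After median-of-ratios scaling Rxra ran from 14.2 FPKM in MyoCre replicate 4 to 26.8 FPKM in K15-SKO replicate 3. Between genotypes the log2 fold change was 0.10 (SE 0.19, 95% interval -0.31 to 0.50), or -0.06 without MyoCre replicate 4.

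The ERR receptors were led by Esrrg and Esrra in the table. Esrra (ENSMUSG00000024955.13; chromosome 19, 6910977 to 6921813, minus strand), which acts with PGC-1 alpha on respiratory genes, had 43.8, 58.1, 48.9 and 28.4 FPKM in MyoCre and 41.6, 46.1, 40.8 and 26.8 FPKM in K15-SKO libraries. Replicate 4 was the lowest library of each genotype. The log2 fold change was -0.19 (SE 0.24, 95% interval -0.70 to 0.33) and ran from -0.39 without MyoCre replicate 4 to -0.02 without K15-SKO replicate 4. Exons of the neighbouring Trmt112 overlap those of Esrra; Trmt112 had at most 4.16 FPKM in any library, and without a stated strand setting their shared reads cannot be told apart.

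Esrrg (ENSMUSG00000026610.13; chromosome 1, 187608791 to 188214885, plus strand), an ERR abundant in slow and oxidative muscle, had 37.8, 42.3, 39.5 and 57.8 FPKM in MyoCre. The K15-SKO libraries held 50.3, 35.4, 20.4 and 64.6 FPKM, which put both the lowest and the highest library of the series in the same genotype. The log2 fold change was -0.16 (SE 0.30), and 0.15 without K15-SKO replicate 3. After median-of-ratios scaling that library still had the lowest Esrrg, 25.5 against 33.2 to 67.6 FPKM in the others. The ratio of Esrrg to Esrra ran from 0.50 in K15-SKO replicate 3 to 2.03 in MyoCre replicate 4 and 2.41 in K15-SKO replicate 4, and lay between 0.73 and 1.21 in the rest.

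Esrrb (ENSMUSG00000021255.17; chromosome 12, 86361117 to 86521628, plus strand), known from pluripotent cells and also made in muscle, had 9.26, 7.56, 9.29 and 6.90 FPKM in MyoCre and 8.54, 6.49, 8.18 and 7.43 FPKM in K15-SKO libraries. It varied least of the 10, with a standard deviation of 0.18 on the log2 scale within genotypes. Its log2 fold change of -0.10 (SE 0.18, 95% interval -0.48 to 0.28) became 0.03 with median-of-ratios scaling. Esrra exceeded Esrrb by 3.61 to 7.68 times within a library.

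The coactivators varied widely between mice of the same genotype. Ppargc1a (ENSMUSG00000029167.13; chromosome 5, 51454250 to 51567726, minus strand) encodes PGC-1 alpha, which rises with exercise and fasting. It had 16.8, 56.4, 23.3 and 37.8 FPKM in MyoCre and 35.7, 29.5, 16.9 and 41.1 FPKM in K15-SKO libraries, a span of 3.36 times from lowest to highest. The controls alone covered both ends of that span. Its standard deviation within genotypes, 0.66 on the log2 scale, was larger than that of 95.6% of tested genes, whose median was 0.29. The log2 fold change was -0.05 (SE 0.38, 95% interval -0.90 to 0.81), and it turned to 0.25 without MyoCre replicate 2, 0.21 without K15-SKO replicate 3 and 0.09 with median-of-ratios scaling.

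Ppargc1b (ENSMUSG00000033871.14), which encodes PGC-1 beta, had 4.15, 2.60, 3.78 and 2.33 FPKM in MyoCre and 3.46, 2.47, 3.42 and 1.25 FPKM in K15-SKO libraries. K15-SKO replicate 4 was the lowest, and the other 3 K15-SKO values lay inside the control range. The log2 fold change was -0.28 (SE 0.27, 95% interval -0.86 to 0.30) and ran from -0.41 without K15-SKO replicate 1 to -0.02 without K15-SKO replicate 4. Ppargc1a exceeded Ppargc1b by 4.04 to 32.8 times; among the controls alone the ratio ran from 4.04 to 21.7.

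Nrip1 (ENSMUSG00000048490.13; chromosome 16, 76287400 to 76373827, minus strand), the corepressor RIP140, had 5.39, 6.21, 6.57 and 6.18 FPKM in MyoCre and 6.40, 5.36, 4.09 and 5.88 FPKM in K15-SKO libraries. K15-SKO replicate 3 was the lowest, at 5.13 FPKM after median-of-ratios scaling, where the others ran from 5.03 to 6.34 FPKM. The log2 fold change was -0.16 (SE 0.18, 95% interval -0.55 to 0.22), and -0.05 without that library.

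Promoter sequences were compared for the member with the largest difference as deposited and the member with the widest spread. The windows are those of RefSeq on GRCm38.p6, the assembly of mm10, and run from 250 bases before to 50 bases after a start; capitals mark CACCC or its reverse complement, letters that Kruppel-like factors are known to bind. Ppara lies at chr15:85735526-85735825 on the plus strand, and Ppargc1a at chr5:51567676-51567975 on the minus strand, both written 5′ to 3′.
Ppara: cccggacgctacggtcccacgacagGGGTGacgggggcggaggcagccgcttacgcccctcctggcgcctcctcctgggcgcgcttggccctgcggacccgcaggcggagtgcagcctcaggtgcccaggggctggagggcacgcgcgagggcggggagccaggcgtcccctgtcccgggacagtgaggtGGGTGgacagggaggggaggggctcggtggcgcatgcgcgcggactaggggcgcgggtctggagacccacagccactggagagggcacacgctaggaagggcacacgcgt
Ppargc1a: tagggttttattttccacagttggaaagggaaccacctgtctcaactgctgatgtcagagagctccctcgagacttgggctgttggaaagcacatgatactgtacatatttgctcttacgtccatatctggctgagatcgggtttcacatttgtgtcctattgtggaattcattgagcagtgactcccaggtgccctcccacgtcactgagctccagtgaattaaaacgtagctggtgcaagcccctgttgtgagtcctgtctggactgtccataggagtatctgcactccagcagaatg
The Ppara window held 2 such matches and the Ppargc1a window 0. Windows were found for 9 of the 10 genes, 17 in all, and 14 of the 17 held CACCC on either strand, against 57.5% of 32851 windows of the same length. GGGCGG was in 9 of the 17 (35.7% of all windows), and the ERR site AAGGTCA in 1 of the 17, a second Rxra window (4.72% of all). The PPAR element, AGGTCA repeated after 1 base, was in 0 of the 17 (0.0396% of all). The matches are letters only and were read on both strands; no binding was measured here.

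Some of the regulators were high or low in the same libraries. In MyoCre replicate 4 and K15-SKO replicate 4, Esrrg (57.8 and 64.6 FPKM) was at its highest in each genotype, while Esrra, Ppargc1b and Ppard were at their lowest. MyoCre replicate 2, the library with Y-linked Ddx3y and almost no Xist, held the highest Ppara (32.8 FPKM), Esrra (58.1 FPKM) and Ppargc1a (56.4 FPKM). Whether sex had a part in these levels was not tested. Over the 8 libraries and 45 pairs of members, Pearson's r of log2(FPKM + 0.5) ran from -0.75 for Pparg with Esrrg to 0.80 for Esrrg with Nrip1, with a median of 0.07. The first became -0.30 without the 2 libraries with the most extreme Pparg, and the second 0.56 without the 2 with the most extreme Esrrg. Ppard and Ppargc1b gave 0.77 (Spearman's rho 0.93), and 0.97 without the 2 most extreme libraries of Ppard. Ppargc1a with Ppargc1b gave -0.64 (rho -0.71). These values describe 8 libraries that share their scaling and differ in depth, and the pairs were picked after the values were seen. The muscle marker sum was also at its lowest in the replicate 4 libraries, 17914 and 18255 FPKM; its part in the pattern was not tested.

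**Figure D3:**
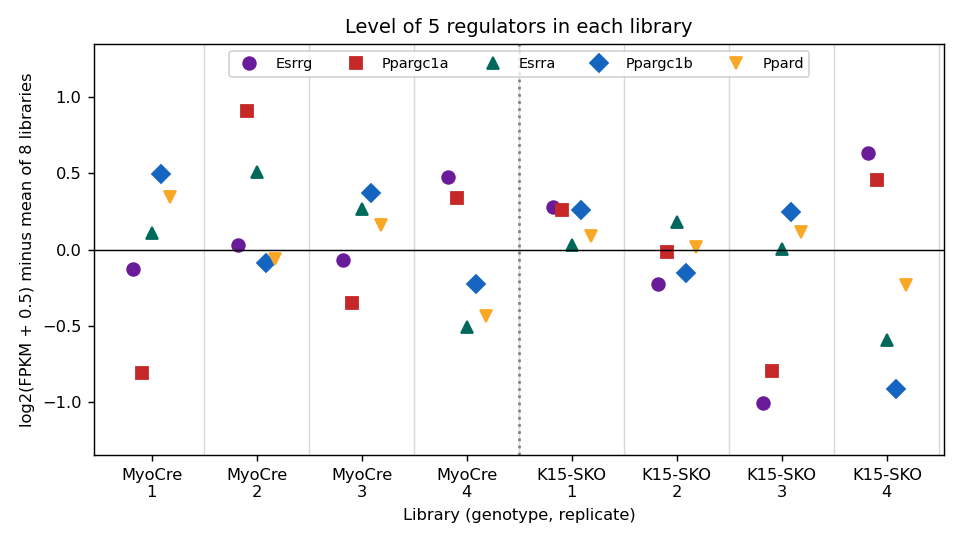
Log2(FPKM + 0.5) of Esrrg, Ppargc1a, Esrra, Ppargc1b and Ppard in each library, less that gene's mean over the 8 libraries (y axis); the dotted line separates the genotypes. In both replicate 4 libraries Esrrg and Ppargc1a lie above 0 and Esrra, Ppargc1b and Ppard below it, and K15-SKO replicate 3 holds the lowest Esrrg, 20.4 FPKM.

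The genes closest in pattern were looked up for Ppara, Ppargc1a and Esrra, and none was another of the 10. For Ppara they were Thyn1, Ywhah and Mapk1ip1 (Pearson's r 0.98, 0.97 and 0.97 over 8 libraries), for Ppargc1a Rcc1, Slc25a24 and the predicted gene Gm25291 (0.94, 0.93 and 0.93), and for Esrra Rnaseh1, Pex14 and the predicted gene Gm12350 (0.99, 0.99 and 0.99). Other genes reached such values too: 434 tested genes had an r over 0.9 with Esrra, 87 with Ppara and 7 with Ppargc1a. Why these counts differ was not tested. Esrrg ranked at 285 among all tested genes in likeness to Ppargc1a (r 0.68), and Ppargc1b at 12344 (r -0.64).

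Target genes of the receptors were counted from lists. The lists were chosen with earlier results of these data known, so the counts describe them and are no independent test. Of 36 PPAR targets 33 were tested, and 2 of the 33 were lower and 0 higher, against 0.183% and 0.367% of all genes. At an unadjusted p under 0.05, 8 of the 33 were lower and 0 higher, against 4.33% of all genes in either direction. The median log2 fold change of the 33 was -0.34, against -0.12 over all genes, and 28 of 33 were under that overall median. With median-of-ratios scaling the medians were -0.20 and 0.00. Markers of some other cells in the muscle were shifted by as much. The median was -0.41 for fat cell markers (6 of 7 below that of all genes), -0.41 for macrophage (8 of 8) and -0.38 for fibroblast markers (6 of 7). For endothelial markers it was 0.17 (0 of 8). No marker of these 4 lists passed the threshold, and their part in the shift of the targets was not tested. Muscle fibre markers had a median of -0.10 (5 of 13 below that of all genes), Schwann cell markers -0.20 (3 of 4) and erythroid markers 0.80 (0 of 5). Acot1, a cytosolic acyl-CoA thioesterase, had 7.70, 5.08, 7.74 and 9.17 FPKM in MyoCre and 0.39, 1.79, 2.42 and 1.61 FPKM in K15-SKO libraries. Every K15-SKO library was below every control (log2 fold change -2.04, SE 0.33, limma adjusted p = 0.0106), and the call held in 14 of 19 alternative fits, with an adjusted p of 0.0832 under median-of-ratios scaling. Reads shared with the closely related Acot2 may make this level uncertain, which was not tested.

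Slc25a34, a mitochondrial carrier, and Ehhadh, the bifunctional enzyme of peroxisomal fatty acid oxidation, did not pass the threshold. Slc25a34 measured 32.7 ± 5.41 and 13.8 ± 6.06 FPKM (limma adjusted p = 0.0534) and Ehhadh 5.88 ± 1.84 and 2.29 ± 0.53 FPKM (adjusted p = 0.0613), without overlap of the genotypes in either. For Ehhadh the ranges nearly touched, with 3.14 FPKM in MyoCre replicate 2 and 3.07 FPKM in K15-SKO replicate 2. Slc25a34 passed in 5 of 20 alternative fits and Ehhadh in 2 of 19. The mean score of the list, the average of its 33 genes as log2(FPKM + 0.5) less each gene's own mean, was 0.11 to 0.33 in MyoCre and -0.41, 0.10, -0.25 and -0.22 in K15-SKO libraries. With median-of-ratios scaling the ranges overlapped (0.03 to 0.21 and -0.44 to 0.07). The regulators themselves had a median log2 fold change of -0.13, with Ppara at -0.39.

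Targets of ERR and PGC-1, mostly genes of respiration and mitochondrial upkeep, stayed near the median of all genes. Of 38 listed and tested, 0 were called in either direction (1 of 38 at an unadjusted p under 0.05, against 4.33% of all genes). Their median log2 fold change was -0.16, or -0.03 with median-of-ratios scaling. The 4 with the smallest p were Cox6a2, a muscle subunit of cytochrome c oxidase, with 1417 ± 266.5 and 926.4 ± 160.8 FPKM (limma adjusted p = 0.699), and Ppif, Acadm and Slc2a4 with log2 fold changes of -0.39, -0.27 and -0.23 (adjusted p = 0.957 each). Perm1, a muscle gene induced by PGC-1 and ERR, measured 132.1 ± 24.9 and 109.0 ± 17.3 FPKM.

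The mean score of the ERR and PGC-1 targets could be set beside each regulator over the 8 libraries. Ppara gave the highest Pearson's r of the 10, 0.87 (rho 0.86), and 0.74 without its 2 most extreme libraries. Nrip1 gave 0.78 (rho 0.55), Esrra 0.54 (rho 0.90) and Ppargc1a 0.39 (rho 0.02). The score of the PPAR targets gave 0.68 with Ppara, and 0.38 after median-of-ratios scaling. For the ERR and PGC-1 targets, after median-of-ratios scaling Ppara gave 0.90 and Nrip1 0.02, but the score then spanned only -0.03 to 0.10, with MyoCre replicate 2 at 0.10 and the other 7 libraries just below 0. These relations were chosen after the values were seen, and libraries of both genotypes are pooled in them.

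Partners and other co-regulators also showed no called gene, 0 of 41 in either direction. At an unadjusted p under 0.05 there were 0 of the 41, against 4.33% of all genes. Their median log2 fold change was -0.12, the same as over all genes. The smallest p belonged to Lpin1, a lipid phosphatase that acts with PGC-1 alpha and PPAR alpha, with 59.5 ± 6.90 and 46.3 ± 11.9 FPKM. Med1, the Mediator subunit that binds nuclear receptors, had a log2 fold change of -0.28, Perm1 one of -0.27 and the orphan receptor Nr4a3 one of 0.40 (limma adjusted p = 0.957 each).

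**Figure D4:**
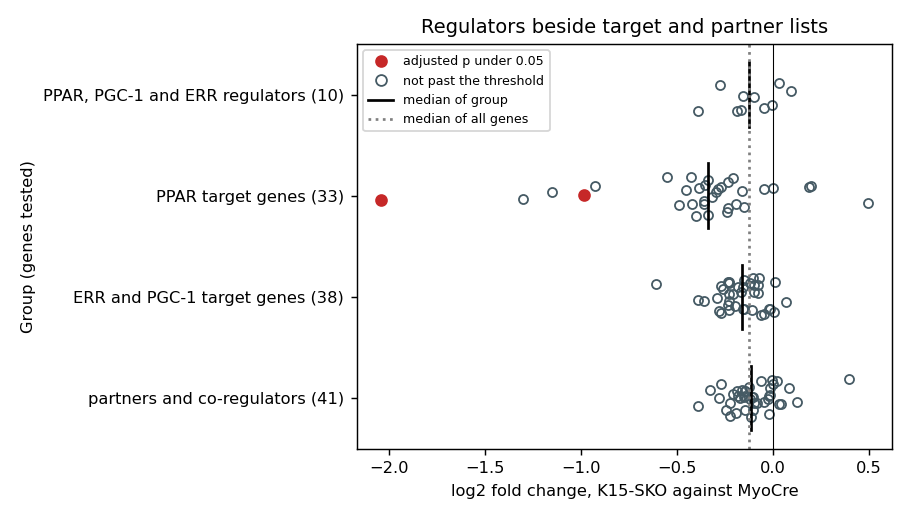
Log2 fold change, K15-SKO against MyoCre (x axis), of the 10 regulators and of the tested genes of the 3 lists; each circle is 1 gene, filled where the limma adjusted p was under 0.05, black bars are group medians and the dotted line the median of all genes, -0.12. The PPAR targets reach to -2.04 (Acot1), while the regulators stay between -0.39 and 0.10.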

How the data were processed

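RNA-seq of 8 soleus libraries was read from 1 deposited table of 24033 genes. The deposited values are taken to be FPKM, inferred from the values and from STAR, Cufflinks, Cuffdiff and mm10 in the submitters' processing notes; for versions, annotation release, strand setting and scaling, the sources used here say nothing. The table holds 0 further value columns. Values were tested as log2(FPKM + 0.5), which understates changes of low genes, in limma 3.58.1 (R 4.3.3) with trend and robust variance estimation and genotype as the 1 term. The 12535 genes averaging 1 FPKM or more entered, and two-sided p-values were adjusted by Benjamini-Hochberg over all of them. The script was tested on simulated data. Depth was estimated by taking the most common low value of FPKM times length, in 4820 single-transcript genes, as 1 fragment; the estimate for K15-SKO replicate 3 ran from 8610000 to 13500000 with the width of the bins, and no counts were recovered. Coordinates are from GENCODE M21 on GRCm38, where 23896 of the gene IDs were found.

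The regulators and lists were chosen with earlier results of these data known. Named are all 10 regulators, Klf15, and per list the 4 genes with the smallest p and any past the threshold; the values of 1 such gene are not reported here. Further genes are named from their values. Alternatives were a pseudocount of 1 or 0.1, dropping the filter or raising it to 5 FPKM, 3 scalings, no robust estimation, no trend, library weights, the replicate block, no genes listed at 0 in a genotype, and leaving out each library. Within the target and partner lists, Acadm, Pdk4 and Perm1 are each in a pair of lists. Fabp4 is both a PPAR target and a fat cell marker. Mb is both an ERR and PGC-1 target and a muscle fibre marker.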

Additional observations from a re-analysis of the deposited data

Results flagged for a closer look

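Within a genotype, a value was picked out when its gap to the nearest of the other 3 libraries took up more of the range of the 4 than the 95% critical value of Dixon allows. Of 44 groups of 4 values, for the 10 regulators, Klf15 and the named target and partner genes, there were 5 of these, and about 2.2 would arise by chance (1 in 20). Among the regulators there was 1: Rxra at 13.8 FPKM in MyoCre replicate 4, below the other controls. In MyoCre the others were Slc25a34 at 40.8 FPKM in replicate 3, above the rest, and Ehhadh at 3.14 FPKM and Med1 at 9.09 FPKM in replicate 2, below the rest. In K15-SKO muscle it was Nr4a3 at 2.11 FPKM in replicate 2, above the rest.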

How the results depend on the processing

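None of the 197 tests of a regulator under the 20 alternatives passed an adjusted p of 0.05 in limma, and 3 had an unadjusted p under 0.05, all for Ppara. The sign was kept in 174 of the 197 and turned in 23. With median-of-ratios, upper-quartile and quantile scaling the log2 fold change became 0.11, 0.11 and 0.10 for Ppard, 0.034, 0.028 and 0.034 for Esrrb, and 0.090, 0.084 and 0.096 for Ppargc1a. With library weights it became -0.17 for Pparg, 0.20 for Esrrg, 0.37 for Ppargc1a and 0.041 for Nrip1. Leaving out 1 library at a time gave -0.15 to 0.11 for Ppard, -0.20 to 0.15 for Pparg, -0.056 to 0.15 for Rxra, -0.40 to 0.15 for Esrrg and -0.32 to 0.25 for Ppargc1a. Over all genes, 23 were called lower, against 14 with each of the 3 scalings, 15 without robust estimation, 101 with library weights, 12 without genes listed at 0 in a genotype, and 8 (without MyoCre replicate 3) to 28 (without MyoCre replicate 2) with a library left out. Dropping MyoCre replicate 1 left 14, and dropping K15-SKO replicate 1 left 13. The 46 called higher became 22 at a mean of at least 5 FPKM and 0 without genes listed at 0 in a genotype, which all 46 are (limma; 68 of the rest were higher at an unadjusted p under 0.05). Leaving out a library gave 45 to 54. For the other changes the cause was not tested. Ppard, Pparg and Ppargc1b were not tested at a mean of at least 5 FPKM.

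Replicate numbers were shared by the genotypes, but the labels tie them to nothing, and same-numbered libraries correlated at 0.10, 0.23, 0.002 and 0.28 in their deviations, against -0.24 to 0.13 for different numbers; not every library correlated best with its own number. Ppara, Esrra and Ppargc1b were lower in K15-SKO in 4 of 4 same-numbered pairs. Esrrb and Nrip1 were lower in 3, and Ppard, Pparg, Rxra, Esrrg and Ppargc1a in 2. Over all tested genes 77.0% had a negative log2 fold change, and their share with 4 of 4 was not counted. With the replicate block 32 genes were lower and 46 higher, and no regulator was called (Ppara had an unadjusted p of 0.0505 and an adjusted p of 0.863 in limma). Slc25a34 passed with the block (limma adjusted p = 0.0172), and also with a pseudocount of 1, at a mean of at least 5 FPKM, with library weights and without K15-SKO replicate 2 (0.00766 to 0.0492); Ehhadh passed with library weights (0.0159) and without MyoCre replicate 2 (0.00206). Depth is only roughly known, so no counting interval is given.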
